A study of Mus musculus with 8 samples.

Results

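The collagen genes are the 40 genes of the array whose symbol has the form Col, number, a, number. They were found among 28786 genes with a symbol and were matched by name, not by their measured values. The family was chosen with earlier results of these data known. They were covered by 78 probes on 96 spots, and 28 of the genes had more than 1 probe. Each gene is described by its brightest probe, the one with the highest mean Cy3 signal over the 8 arrays. In 39 of the 40 genes this probe was well above background in Cy3 on all 8 arrays, and these 39 were tested among 23561 genes. The exception was Col14a1, a fibril-associated collagen, whose probe was well above background on 3 arrays and was not tested.

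The RNA came from MC3T3-E1 cells, a mouse osteoblast (bone-forming) line that originated in the skull, in co-culture with tumour cells. The tumour cells carried an empty vector or overexpressed Jagged1, a membrane-bound ligand of Notch receptors. The solvent DMSO was given to one set of co-cultures and MRK-003 to the other. MRK-003 blocks gamma-secretase, which cuts an activated Notch receptor so that its inner part can reach the nucleus. The 4 groups were vector with DMSO, Jagged1 with DMSO, vector with MRK-003 and Jagged1 with MRK-003, with 2 biological replicates each. All cultures were kept in alpha MEM with 10% serum. Not given in the sources used here are the tumour line, its species, the MRK-003 dose, the time in co-culture and the way osteoblasts were parted from them. From 175 ng of total RNA, labelled with Cy3, each sample was hybridised against Cy5-labelled Universal Mouse Reference RNA, with no dye swap. The values are log2 ratios of Cy3 over Cy5, so 0 means the level in the reference RNA. Replicate 1 of all groups lay on slide 1 and replicate 2 on slide 2, and every set of values below gives slide 1 first. On both slides the 4 groups lay at positions 1, 2, 3 and 4 in the order named above. A group and its position therefore cannot be told apart in any fit used here. With 2 arrays a group, the number of arrays limits the precision. The p-values measure the spread between replicate cultures, and without a slide term that spread also holds the difference between the slides. In these bulk samples, fewer cells of a type and less RNA per cell cannot be told apart.

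Collagens are secreted proteins of 3 chains wound into a triple helix, built on a repeat of glycine followed by a pair of other residues. Fibrillar collagens (types I, II, III, V, XI, XXIV and XXVII) form the fibrils of bone, cartilage and connective tissue, and type I is the main protein of bone matrix, made in large amounts by osteoblasts. Type IV collagen forms the network of basement membranes, and FACITs (fibril-associated collagens with interrupted triple helices) decorate fibrils. Type VI forms beaded filaments, types VIII and X short-chain networks, types XV and XVIII are multiplexins of basement membrane zones, and a few types span the cell membrane. Of the 40 genes, 11 encode fibrillar chains, 6 type IV chains, 9 FACITs, 3 type VI chains, 3 short-chain collagens, 2 multiplexins and 4 transmembrane collagens. The other 2 are Col7a1, the chain of anchoring fibrils, and Col28a1.

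The repeat that defines the family can be read in the probes. Of the 78 collagen probes 3 (3.85%) carried an unbroken run of glycine codons with 2 other codons between them, in 1 reading frame over the whole 60 bases, against 0 of the other 41096 probes. All 3 belong to minor fibrillar chains of types V and XI, which pack inside larger fibrils. They are shown 5′ to 3′ with the glycine codons in capitals, and the Col5a3 probe is one of the pair that reported the changes of that gene described below.

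Col5a3 probe: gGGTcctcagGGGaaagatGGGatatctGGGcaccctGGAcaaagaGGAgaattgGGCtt
Col5a1 probe: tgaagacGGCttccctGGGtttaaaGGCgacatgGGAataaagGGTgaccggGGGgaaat
Col11a2 probe: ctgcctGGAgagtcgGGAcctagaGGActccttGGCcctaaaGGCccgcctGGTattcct

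On build mm7 the Col5a3 probe was placed by the array's design on chr9:20655471-20656200 (minus strand), the Col5a1 probe on chr2:27994034-27996457 (plus strand) and the Col11a2 probe on chr17:32131401-32131567 (plus strand). Each interval is longer than the 60 bases of its probe, so each probe joins pieces that are apart in the genome. They had 7, 6 and 6 glycine codons. None of the 3 was the brightest probe of its gene.

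As a check of the Notch signal, Hey1, a direct Notch target, had log2 ratios of -0.59 and -0.54 with vector cells in DMSO and 3.38 and 3.13 with Jagged1 cells in DMSO. In MRK-003 they were -3.30 and -2.88 with vector cells and -2.43 and -2.85 with Jagged1 cells. Jagged1 cells in DMSO stood above every other group, and Hey1 rose with Jagged1 in DMSO (log2 difference 3.83 ± 0.21 SE, limma adjusted p = 0.0098) and fell with MRK-003 in Jagged1 co-cultures (-5.90 ± 0.21 SE, adjusted p = 0.00096).

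The collagen calls lay in MRK-003 against DMSO with Jagged1 tumour cells. There 3 of the 39 tested collagen genes passed, Col4a1, Col4a2 and Col5a3, all lower with MRK-003. Over all 23561 genes 0.675% passed in that direction and 1.11% in either. With the slide as a block the count was 7 of 39, against 4.17% of all genes (2.22% higher and 1.96% lower). The members that this fit added were Col2a1, Col11a2 and Col6a3, lower, and Col4a6, higher. With any 1 of the 8 arrays left out, none of the 39 passed.

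Jagged1 against vector cells in DMSO gave 0 of 39 by limma, where 0.0722% of all genes passed (0.0509% higher and 0.0212% lower), and 10 of 39 had an unadjusted p below 0.05, as did 1740 of the 23561 genes. With the slide as a block 2 passed, Col4a1, higher with Jagged1, and Col4a6, lower, against 1.09% of all genes (0.505% higher and 0.581% lower). The 2 comparisons use the same Jagged1 arrays in DMSO, so their values are given side by side and are not independent.

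**Figure D1:**
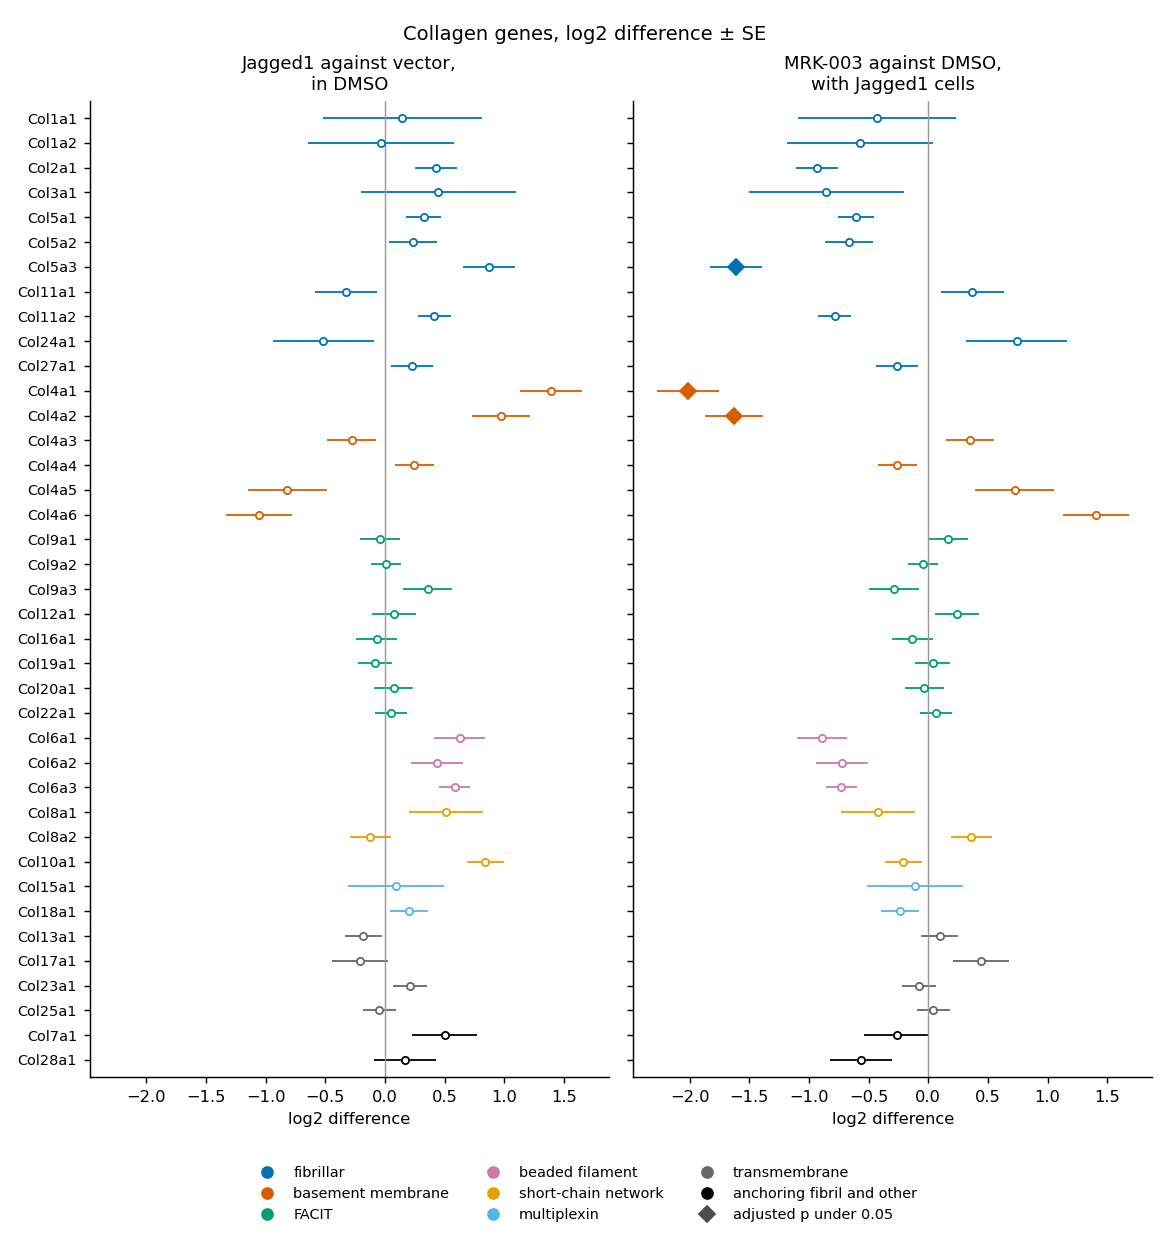
Log2 difference of the Cy3 over Cy5 ratio (x axis) for the 39 tested collagen genes (y axis), Jagged1 against vector cells in DMSO on the left and MRK-003 against DMSO with Jagged1 cells on the right. Points are limma estimates with SE, colours are collagen types, and filled diamonds mark adjusted p under 0.05, which on the right are Col4a1, Col4a2 and Col5a3 and on the left none.

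Type IV collagen held the largest differences in either direction. Its chains assemble as a pair of alpha 1 with an alpha 2, as alpha 3, alpha 4 and alpha 5, or as a pair of alpha 5 with an alpha 6. The genes lie in head-to-head pairs, each pair with its starts close together. Col4a1 and Col4a2 lie on chromosome 8 and overlap by 85 bases in RefSeq's annotation of GRCm38.p6, and Col4a5 and Col4a6 lie on chromosome X with 1274 bases between them. The remaining pair, Col4a3 and Col4a4, overlaps by 114 bases on chromosome 1. Its differences with MRK-003 in Jagged1 co-cultures had opposite signs on the brightest probes (0.35 and -0.26), and a dimmer probe of each gene gave the other sign. The promoter windows of the other 2 pairs are shown, a choice made from their values. In the 2 comparisons that share the Jagged1 arrays in DMSO, both genes of a pair had 1 sign and the 2 pairs had opposite signs. For MRK-003 with vector cells, Col4a5 and Col4a6 gave -0.04 and 0.32. Each window is 300 bases, from before to just after the transcript start, from RefSeq (GRCm38.p6), 5′ to 3′ on the gene's strand. Capitals mark each match, on either strand, to the CCAAT box (CCAAT), the GC box (GGGCGG) or TGGGAA, the core of the site bound by RBPJ, the DNA-binding partner of Notch.

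Col4a1: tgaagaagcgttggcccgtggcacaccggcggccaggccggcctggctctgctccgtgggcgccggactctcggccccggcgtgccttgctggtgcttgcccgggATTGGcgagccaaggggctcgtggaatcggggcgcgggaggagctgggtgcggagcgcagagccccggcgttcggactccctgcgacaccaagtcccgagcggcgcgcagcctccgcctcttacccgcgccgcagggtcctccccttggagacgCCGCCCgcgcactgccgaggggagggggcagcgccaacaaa
Col4a2: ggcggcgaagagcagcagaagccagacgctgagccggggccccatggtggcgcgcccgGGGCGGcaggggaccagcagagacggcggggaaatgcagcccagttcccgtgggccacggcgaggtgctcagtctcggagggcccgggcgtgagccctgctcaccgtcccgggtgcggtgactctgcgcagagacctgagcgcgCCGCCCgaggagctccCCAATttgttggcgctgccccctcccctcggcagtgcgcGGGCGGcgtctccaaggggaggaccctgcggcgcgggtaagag
Col4a5: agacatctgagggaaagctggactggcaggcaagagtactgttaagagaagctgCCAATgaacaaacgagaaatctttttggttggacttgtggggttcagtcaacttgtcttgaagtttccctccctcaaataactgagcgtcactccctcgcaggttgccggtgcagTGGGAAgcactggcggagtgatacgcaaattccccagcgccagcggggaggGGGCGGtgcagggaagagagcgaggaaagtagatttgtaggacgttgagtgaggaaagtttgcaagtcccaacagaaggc
Col4a6: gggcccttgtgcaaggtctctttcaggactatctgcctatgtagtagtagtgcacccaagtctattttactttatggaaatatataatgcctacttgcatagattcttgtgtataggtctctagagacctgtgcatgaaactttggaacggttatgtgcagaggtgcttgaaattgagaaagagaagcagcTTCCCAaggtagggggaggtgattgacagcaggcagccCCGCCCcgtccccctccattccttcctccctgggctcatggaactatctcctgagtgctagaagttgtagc

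The windows lie at chr8:11312777-11313076 (Col4a1, minus strand), chr8:11312555-11312854 (Col4a2, plus), chrX:141475169-141475468 (Col4a5, plus) and chrX:141474027-141474326 (Col4a6, minus). The first pair's windows share 78 bases, so part of the same sequence is read on opposite strands. TGGGAA occurred once in the windows of Col4a5 and Col4a6 and in neither window of Col4a1 and Col4a2. It occurred in 9 of the 32 collagen promoters in the table and in 25.5% of all 27025 promoters of that length. CCAAT occurred in Col4a1, Col4a2 and Col4a5 and in 37.9% of all promoters. The GC box occurred in all 4 and in 35.9%. A match of letters is a description of the window and not a site.

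Col4a1 encodes the alpha 1 chain of type IV collagen, found in nearly all basement membranes. Its log2 ratios were 1.64 and 1.22 with vector cells in DMSO, 2.99 and 2.66 with Jagged1 cells in DMSO, 0.68 and 0.48 with vector cells in MRK-003, and 1.12 and 0.49 with Jagged1 cells in MRK-003. Both Jagged1 arrays in DMSO lay above all 6 others, and the 2 MRK-003 groups overlapped. Col4a1 fell 4.05-fold with MRK-003 in Jagged1 co-cultures (log2 difference -2.02 ± 0.26 SE, limma adjusted p = 0.030), by -1.86 on slide 1 and -2.17 on slide 2. With 1 array left out its adjusted p ranged from 0.051 to 0.19. The difference of Jagged1 from vector cells was 1.39 ± 0.26 SE in DMSO (limma adjusted p = 0.19, and 0.022 with the slide as a block) and 0.23 ± 0.26 SE in MRK-003. The 2 differences were set against each other in the interaction, 1.17 ± 0.37 SE (limma adjusted p = 0.98, and 0.18 with the block). MRK-003 against DMSO with vector cells gave -0.85 ± 0.26 SE (limma adjusted p = 1.00), with no overlap between the groups.

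Col4a2 encodes the partner chain, alpha 2. Its log2 ratios were 1.27 and 0.97 with vector cells in DMSO, 2.05 and 2.14 with Jagged1 cells in DMSO, 0.62 and 0.22 with vector cells in MRK-003, and 0.75 and 0.18 with Jagged1 cells in MRK-003. As for Col4a1, both Jagged1 arrays in DMSO lay above all others and the MRK-003 groups overlapped. Col4a2 fell with MRK-003 in Jagged1 co-cultures (-1.63 ± 0.24 SE, limma adjusted p = 0.039), by -1.30 on slide 1 and -1.96 on slide 2. With 1 array left out its adjusted p ranged from 0.063 to 0.25. For this comparison Col4a2 did not pass on Cy3 alone or with the mean of the gene's probes. Jagged1 cells differed from vector cells by 0.97 ± 0.24 SE in DMSO (limma adjusted p = 0.37) and 0.04 ± 0.24 SE in MRK-003, and MRK-003 with vector cells gave -0.70 ± 0.24 SE. On Cy3 alone, without the reference channel, the difference in DMSO was 1.64. The Cy5 mean signal of Col4a2 was 5158 and 1841 with vector cells in DMSO and 9542 and 3155 with Jagged1 cells in DMSO. With Jagged1 cells in MRK-003 it was 5809 and 2648. These signals are not scaled between arrays, whose median Cy5 signal was 448 and 165, 441 and 203, and 446 and 287 in the same order of groups. The cause of the shift in the Cy5 signal of Col4a2 was not tested.

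A second probe of each gene, at another place in the transcript, gave near values. For Col4a1 it differed by -2.08 for MRK-003 with Jagged1 cells and 1.27 for Jagged1 in DMSO. For Col4a2 these were -1.79 and 1.05.

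The X-linked pair ran the other way. Col4a6 encodes alpha 6, a chain of selected basement membranes such as those of smooth muscle. Its log2 ratios were 1.12 and 1.37 with vector cells in DMSO, 0.00 and 0.38 with Jagged1 cells in DMSO, 1.31 and 1.82 with vector cells in MRK-003, and 1.31 and 1.89 with Jagged1 cells in MRK-003. Both Jagged1 arrays in DMSO were the lowest of the 8, and the 2 MRK-003 groups overlapped. MRK-003 with Jagged1 cells gave 1.41 ± 0.27 SE (limma adjusted p = 0.083, and 0.0071 with the slide as a block), and Jagged1 in DMSO gave -1.05 ± 0.27 SE (adjusted p = 0.40, and 0.033 with the block). Its probes did not give 1 answer. A dimmer probe gave 0.75 and -1.02 for the same comparisons, while one nearly as bright (mean Cy3 signal 903 against 980) gave -0.08 and 0.18, so the difference of Col4a6 was seen by 2 of its 3 probes. The design placed the probes used, dimmer and disagreeing at chrX:135829764-135829823, chrX:135830590-135830649 and chrX:135831206-135831265 of mm7, all on the minus strand.

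Col4a5, the chain that pairs with alpha 6 and also with alpha 3 and alpha 4, had log2 ratios of 1.01 and 1.58 with vector cells in DMSO, 0.37 and 0.59 with Jagged1 cells in DMSO, 0.90 and 1.61 with vector cells in MRK-003, and 0.88 and 1.52 with Jagged1 cells in MRK-003. The Jagged1 arrays in DMSO were again lowest, and the other 3 groups overlapped. The differences were 0.73 ± 0.33 SE for MRK-003 with Jagged1 cells (limma adjusted p = 0.48) and -0.82 ± 0.33 SE for Jagged1 in DMSO (adjusted p = 0.67), which was -0.42 on Cy3 alone.

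Col4a3 and Col4a4, chains of the kidney filter, inner ear and eye among other sites, differed by 0.35 and -0.26 with MRK-003 and by -0.28 and 0.25 with Jagged1 in DMSO, and none passed. Probes of Col4a3 were dim, with a mean Cy3 signal of 77.0 or lower. Its other probes gave -0.08 and 0.13 with MRK-003 in Jagged1 co-cultures, and 0.33 and 0.66 with Jagged1 in DMSO. A dim second probe of Col4a4 gave 0.68 and -0.22 for these comparisons, so the signs of both genes depended on the probe. The 6 type IV genes thus had a median difference near 0 in MRK-003 with Jagged1 cells (0.05), from -2.02 to 1.41, with 3 on each side.

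**Figure D2:**
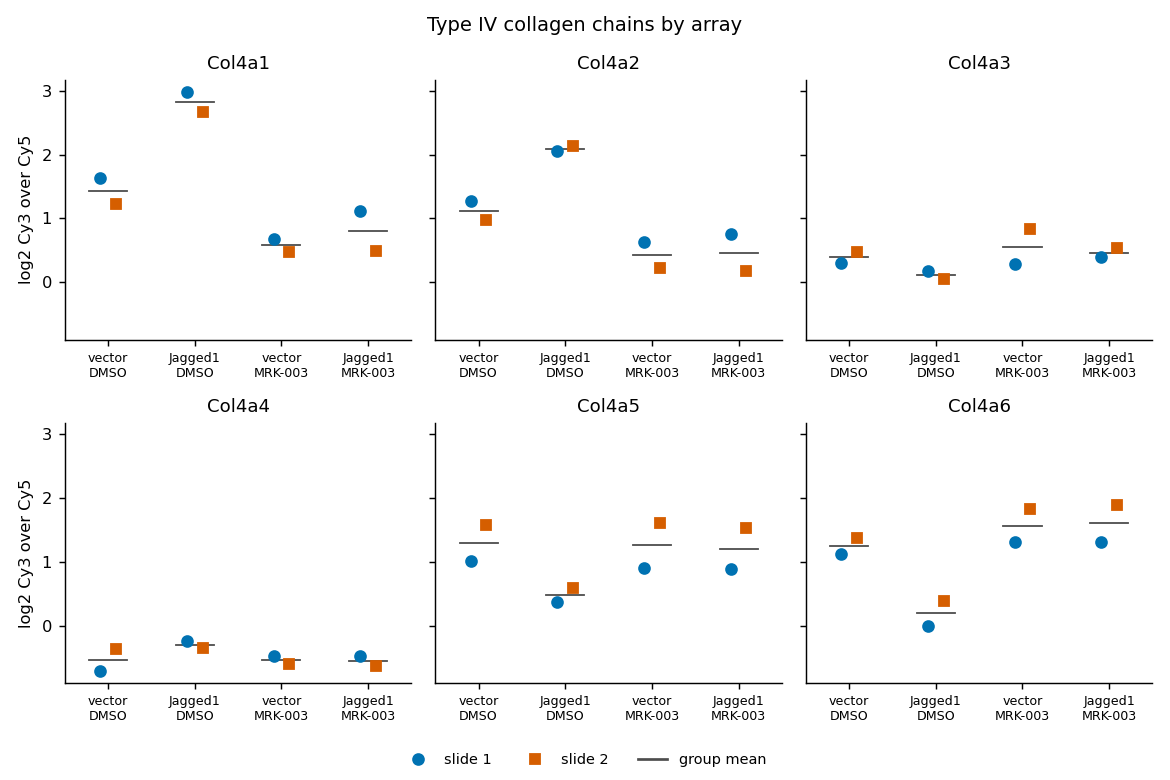
Log2 Cy3 over Cy5 (y axis) of the 6 type IV collagen chains on each of the 8 arrays by group (x axis), circles for slide 1, squares for slide 2 and bars for the group mean. Jagged1 cells in DMSO are highest for Col4a1 (2.99 and 2.66) and Col4a2 (2.05 and 2.14) and lowest for Col4a5 and Col4a6.

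Of the 11 fibrillar chains 9 were lower on average after MRK-003 in Jagged1 co-cultures. Their median difference was -0.61, against 0.00 for all genes tested. Col1a1, Col1a2 and Col3a1 are counted here with ratios bounded by saturation, as described below. Col5a3 alone passed, and Col2a1 and Col11a2 passed with the slide as a block. In 6 of the 11 the groups did not overlap and MRK-003 was lower, as in 22.3% of all genes. With Jagged1 in DMSO 8 of 11 differences were positive, with a median of 0.23 against 0.02 for all genes, and none passed.

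Col5a3 encodes the alpha 3 chain of type V collagen, a fibril-core collagen with a narrower distribution than its partners alpha 1 and alpha 2. Its log2 ratios were 3.16 and 2.95 with vector cells in DMSO, 3.94 and 3.92 with Jagged1 cells in DMSO, 2.31 and 2.05 with vector cells in MRK-003, and 2.61 and 2.03 with Jagged1 cells in MRK-003. Both Jagged1 arrays in DMSO lay above all others, and every DMSO array lay above every MRK-003 array. Col5a3 fell 3.06-fold with MRK-003 in Jagged1 co-cultures (-1.61 ± 0.22 SE, limma adjusted p = 0.033), by -1.33 on slide 1 and -1.90 on slide 2. With 1 array left out its adjusted p ranged from 0.061 to 0.21. Jagged1 in DMSO gave 0.87 ± 0.22 SE (adjusted p = 0.37) and in MRK-003 0.14 ± 0.22 SE. MRK-003 with vector cells gave -0.88 ± 0.22 SE, the largest collagen difference of that comparison (adjusted p = 1.00). On Cy3 alone the differences of Col5a3 were -2.73 for MRK-003 with Jagged1 cells and 1.54 for Jagged1 in DMSO. The Cy5 mean signal of Col5a3, from the common reference RNA, also moved. As for Col4a2, it was not scaled to the median Cy5 signal of each array. It was 8631 and 4772 with Jagged1 cells in DMSO and 5198 and 2322 with vector cells in DMSO. With Jagged1 cells in MRK-003 it was 3735 and 2575. The size of the ratio therefore depends on both channels, and the cause of the Cy5 shift was not tested. The glycine-repeat probe printed above gave -1.44 for MRK-003 with Jagged1 cells and 0.96 for Jagged1 in DMSO.

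The partner chains of type V differed less. Col5a1 had log2 ratios of 2.76 and 2.56 with vector cells in DMSO, 2.94 and 3.02 with Jagged1 cells in DMSO, 2.37 and 2.26 with vector cells in MRK-003, and 2.49 and 2.26 with Jagged1 cells in MRK-003. The DMSO arrays lay above the MRK-003 arrays, and MRK-003 with Jagged1 cells gave -0.61 ± 0.15 SE (limma adjusted p = 0.15). Col5a2 gave -0.66 ± 0.20 SE (adjusted p = 0.24).

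Col2a1, the main collagen of cartilage, gave -0.94 ± 0.18 SE with MRK-003 in Jagged1 co-cultures (limma adjusted p = 0.076, and 0.032 with the slide as a block). It gave -0.56 on Cy3 alone. A second Col2a1 probe gave -0.73, and a dim other one 0.41. Col11a2, which joins type II in cartilage fibrils, gave -0.78 ± 0.14 SE (adjusted p = 0.065, and 0.031 with the block), while its glycine-repeat probe gave -0.19. With normexp on local background, another background correction, the first value was -0.43. Col11a1 and Col24a1 were the fibrillar chains with a positive difference, 0.37 and 0.74, and the Col24a1 probe was dim. They were 0.66 and 0.28 with normexp on local background.

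Types I and III reached the limit of the scanner. Col1a2 was saturated in Cy3 on 8 arrays, Col1a1 on 7 and Col3a1 on 4, and Col1a2 was also saturated in Cy5 on 4, so these ratios are bounded by the scanner and no fold is given. Col1a1, the alpha 1 chain of type I, had log2 ratios of 2.06 and 3.24 with vector cells in DMSO, 2.10 and 3.50 with Jagged1 cells in DMSO, 1.77 and 2.98 with vector cells in MRK-003, and 1.91 and 2.83 with Jagged1 cells in MRK-003. Slide 1 lay below slide 2 in every group, and the groups overlapped. A Col1a1 probe that was never saturated (mean Cy3 signal 43476) read 2.60 and 2.73, 2.81 and 2.99, 2.56 and 2.28, and 2.75 and 2.39 in the same order of groups. It gave 0.23 for Jagged1 in DMSO and -0.32 for MRK-003 with Jagged1 cells.

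Col1a2, the alpha 2 chain of type I, had log2 ratios of 1.08 and 2.72, 1.21 and 2.51, 0.97 and 1.59, and 1.20 and 1.37 in that order, again with slide 1 below slide 2. Col3a1, the type III chain of extensible tissues, read 1.36 and 2.62, 1.64 and 3.24, 1.02 and 1.94, and 1.28 and 1.89, and was saturated on slide 1 and not on slide 2. On slide 2 it differed by -1.34 for MRK-003 with Jagged1 cells and 0.62 for Jagged1 in DMSO. A dimmer Col3a1 probe, unsaturated and above background, read 1.40 and 1.41, 2.05 and 2.53, 0.84 and 0.94, and 1.16 and 0.99, a difference of -1.22 with MRK-003 and 0.89 with Jagged1. Both Jagged1 arrays in DMSO were the highest of the 8 on that probe. None of the 3 genes passed on its brightest probe (limma adjusted p of 0.86 for Col1a1, 0.78 for Col1a2 and 0.68 for Col3a1 in MRK-003 with Jagged1 cells). Saturated spots hide differences above the limit, so these p-values do not decide whether the 3 genes changed.

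**Figure D3:**
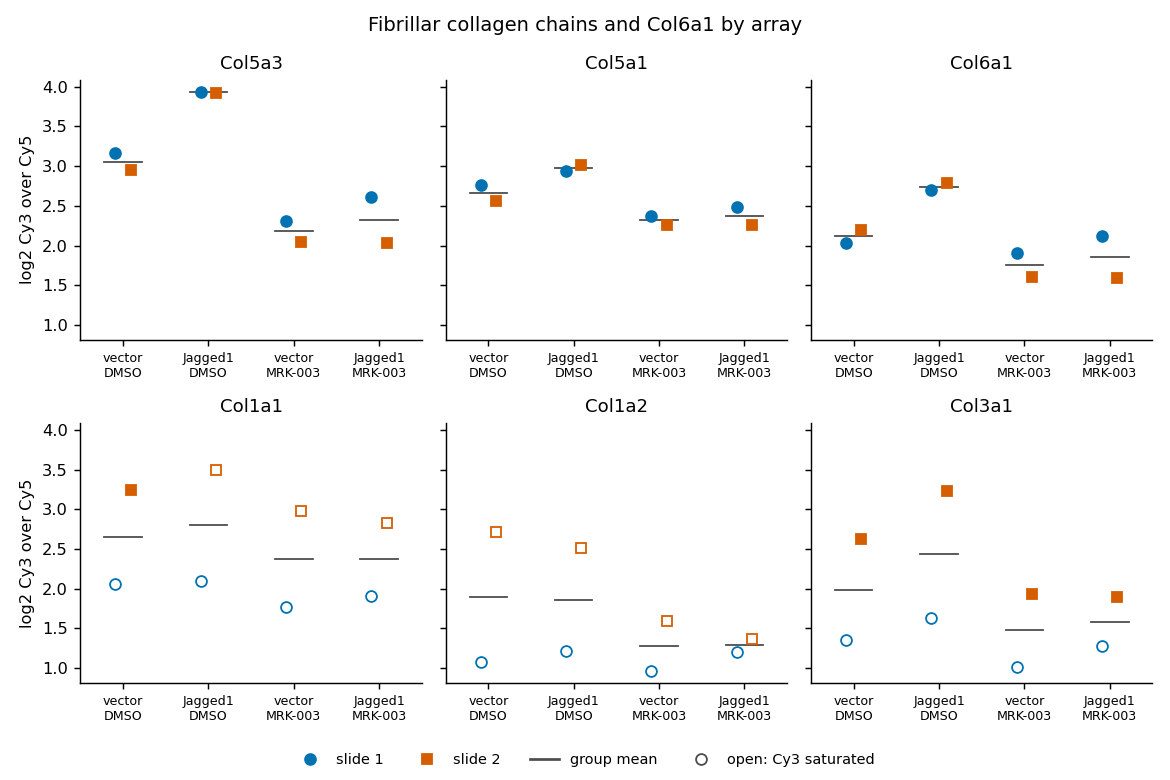
Log2 Cy3 over Cy5 (y axis) of 5 fibrillar chains and Col6a1 on each of the 8 arrays by group (x axis), circles for slide 1, squares for slide 2, bars for group means and open symbols for a saturated Cy3 spot. Col5a3 is highest with Jagged1 cells in DMSO (3.94 and 3.92), and slide 1 lies below slide 2 for Col1a1, Col1a2 and Col3a1, the genes with saturated spots.

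Type VI collagen, whose filaments link cells to the surrounding matrix, had the same direction in all 3 chains. Col6a1 had log2 ratios of 2.03 and 2.20 with vector cells in DMSO, 2.70 and 2.79 with Jagged1 cells in DMSO, 1.91 and 1.60 with vector cells in MRK-003, and 2.11 and 1.59 with Jagged1 cells in MRK-003. The Jagged1 arrays in DMSO lay above the rest. MRK-003 with Jagged1 cells gave -0.89 ± 0.21 SE for Col6a1 (limma adjusted p = 0.13), -0.73 ± 0.22 SE for Col6a2 (0.24) and -0.73 ± 0.13 SE for Col6a3 (0.067, and 0.029 with the slide as a block). On Cy3 alone Col6a2 gave -1.34. Jagged1 in DMSO gave 0.63 ± 0.21 SE, 0.43 ± 0.22 SE and 0.58 ± 0.13 SE. In all 3 the groups did not overlap in either comparison, as was so for 22.3% of all genes lower with MRK-003 and 23.7% higher with Jagged1. A second Col6a2 probe, annotated by another transcript, gave -0.08 and 0.05. In MRK-003, Jagged1 cells differed from vector cells by 0.10, 0.08 and -0.06 for the 3 chains.

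Short-chain collagens were mixed. Col8a1, a chain of vessel and eye matrices, was saturated in Cy3 on 6 arrays, and its unsaturated probe gave 0.74 for Jagged1 in DMSO and -0.58 for MRK-003 with Jagged1 cells. Col8a2, its partner, gave -0.12 and 0.36. Col10a1, the collagen of hypertrophic cartilage, was dim (mean Cy3 signal 59.6) with log2 ratios of 0.12 and -0.16 with vector cells in DMSO, 0.74 and 0.90 with Jagged1 cells in DMSO, 0.24 and 0.29 with vector cells in MRK-003, and 0.53 and 0.70 with Jagged1 cells in MRK-003. Jagged1 arrays lay above vector arrays in DMSO (0.84 ± 0.16 SE, limma adjusted p = 0.19) and in MRK-003 (0.35 ± 0.16 SE, adjusted p = 1.00), where Col10a1 was the largest difference among collagen genes. For this dim probe the difference in DMSO was 0.16 with normexp on local background, 0.27 with limited local background and 0.54 with Cy3 alone.

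No gene of the remaining types passed. The 8 tested FACITs, among them Col12a1 of tendon and bone surfaces and the type IX chains of cartilage, had differences from -0.29 to 0.24 with MRK-003 in Jagged1 co-cultures and from -0.08 to 0.36 with Jagged1 in DMSO. Multiplexins gave -0.11 (Col15a1) and -0.24 (Col18a1), and Col7a1 and Col28a1 gave -0.27 and -0.56. With Jagged1 in DMSO Col7a1 gave 0.50 and Col28a1 0.17. The dim Col28a1 probe gave -0.09 with MRK-003 when local background was used with normexp and loess. Of the 4 transmembrane collagens, Col17a1, the hemidesmosome collagen of skin, read -0.03 and 0.20 with vector cells in DMSO, -0.14 and -0.11 with Jagged1 cells in DMSO, -0.14 and 0.40 with vector cells in MRK-003, and 0.09 and 0.54 with Jagged1 cells in MRK-003. Under MRK-003 its Jagged1 arrays differed from its vector arrays by 0.19 ± 0.24 SE, among the 3 largest collagen differences there. In 13 of the 40 genes the probe used had a mean Cy3 signal under 150, where small true differences are hard to see.

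For Jagged1 against vector cells under MRK-003, no gene of the 23561 passed by limma (0%, with 151 at an unadjusted p below 0.05), nor with the slide as a block. Collagen differences ran from -0.16 to 0.35 with a median of 0.03, none at an unadjusted p below 0.05. Without overlap, 1 was higher and 4 lower, against 8.12% and 7.38% of all genes. MRK-003 against DMSO with vector cells likewise called 0 of 23561 genes (877 at an unadjusted p below 0.05) in either fit. In this comparison 5 of 39 collagen genes had an unadjusted p below 0.05, the median was -0.03, and 10 were lower and 4 higher without overlap, against 11.3% and 15.2% of all genes. The interaction called 0 of 23561 genes (881 at an unadjusted p below 0.05, and 2 with the block, 0.00849%), and 5 collagen genes had an unadjusted p below 0.05.

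Over all 39 tested collagen genes the median difference with MRK-003 in Jagged1 co-cultures was -0.24, 26 of them negative, and 15 were lower and 8 higher without overlap, against 22.3% and 22.7% of all genes. With Jagged1 in DMSO the median was 0.17, 26 positive, and 16 were higher and 6 lower without overlap, against 23.7% and 19% of all genes. These 2 comparisons share the Jagged1 arrays in DMSO.

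Several genes were measured by more than 1 probe above background. In 17 of these 24 genes all such probes lay on the same side of 0 for MRK-003 with Jagged1 cells, and in 7 they did not.

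**Figure D4:**
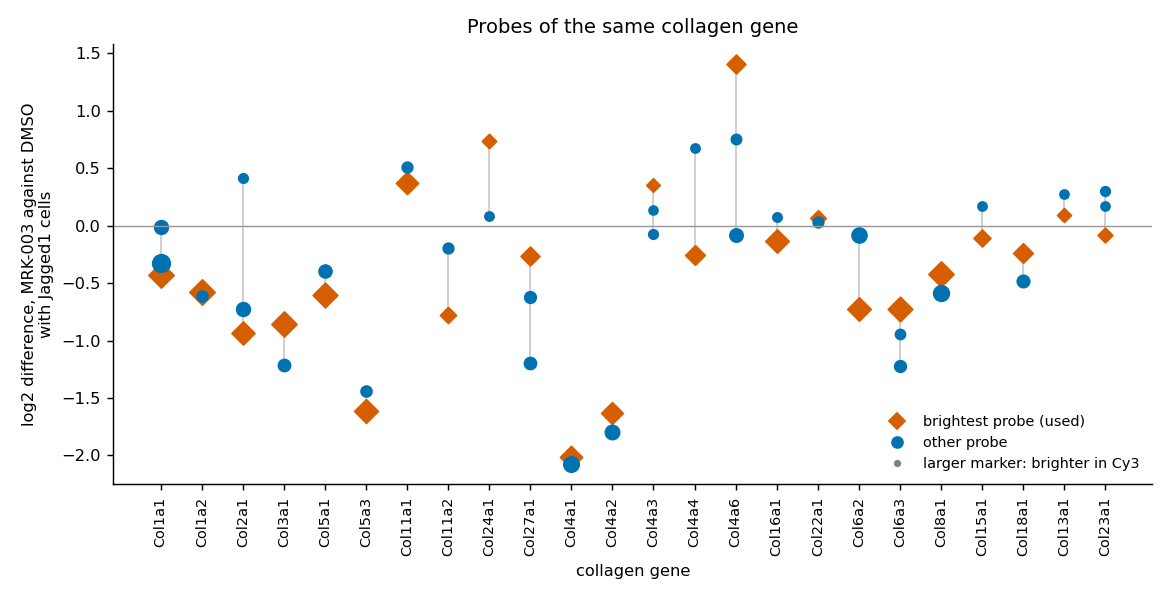
Log2 difference of MRK-003 against DMSO with Jagged1 cells (y axis) for every probe above background of the 24 collagen genes with more than 1 such probe (x axis), diamonds for the brightest probe, circles for the others, larger where the Cy3 signal was higher. Probes of Col4a1, Col4a2 and Col5a3 lie close together, while those of Col4a6 spread from -0.08 to 1.41.

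Genes that modify, cut, cross-link, bind or sense collagen formed a separate list of 40, of which 38 were tested. With MRK-003 in Jagged1 co-cultures 1 passed, lower, against 0.675% of all genes, and 6 passed with the slide as a block, 5 lower and 1 higher, against 1.96% and 2.22% of all genes in that fit. The list's median was -0.29, with 26 of 38 negative. With Jagged1 in DMSO 0 passed against 0.0722% of all genes, and the median was 0.10. With the block 2 passed, Loxl1 and Bmp1, both higher, against 0.505% of all genes.

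Loxl1, a lysyl oxidase relative that cross-links matrix proteins, had log2 ratios of -1.51 and -1.79 with vector cells in DMSO, -0.18 and -0.36 with Jagged1 cells in DMSO, -1.75 and -2.11 with vector cells in MRK-003, and -1.71 and -2.18 with Jagged1 cells in MRK-003. Its Jagged1 arrays in DMSO lay above all others, and it fell 3.18-fold with MRK-003 in Jagged1 co-cultures (-1.67 ± 0.22 SE, limma adjusted p = 0.030). Jagged1 in DMSO gave 1.38 ± 0.22 SE (adjusted p = 0.15, and 0.020 with the block). Adamts2, which removes the amino-terminal propeptide of fibrillar procollagens, gave -0.93 ± 0.15 SE with MRK-003 (0.051, and 0.026 with the block), and Plod2, a lysyl hydroxylase, gave -0.90 ± 0.15 SE (0.054, and 0.026 with the block). Bmp1, which removes the carboxy-terminal propeptide, gave -1.93 ± 0.32 SE (0.056, and 0.0046 with the block). Pcolce2, an enhancer of that cleavage, gave 1.19 ± 0.24 SE (0.093, and 0.032 with the block), and Itga1, a subunit of a collagen-binding integrin, gave -1.64 ± 0.40 SE (0.14, and 0.017 with the block).

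Without the block no gene of that list passed in the other comparisons, and those with the smallest p are given by value. Loxl1, Adamts2 and Loxl3, another lysyl oxidase relative, differed by 1.38, 0.78 and 0.91 for Jagged1 in DMSO, and Mia3, a loader of procollagen into transport vesicles, Itgb1, the shared beta subunit of collagen-binding integrins, and Colgalt2, a collagen galactosyltransferase, by 0.30, 0.21 and -0.30 for Jagged1 in MRK-003. Plod2, Bmp1 and Pcolce2 differed by -0.51, -0.91 and 0.57 for MRK-003 with vector cells. In the interaction Loxl1, Adamts2 and Bmp1 gave 1.39, 0.71 and 1.02.

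Markers of cell types were read beside these results. Of 10 osteoblast markers 8 were on the array, all tested. With Jagged1 in DMSO 3 differences were positive and 5 negative (median -0.51), and with MRK-003 in Jagged1 co-cultures 6 were positive and 2 negative (median 0.22). Dmp1, a mineralisation protein, Sparc, a collagen-binding matrix protein, and Spp1, osteopontin, were those with a positive difference with Jagged1 (0.51, 0.24 and 0.13). Runx2, the transcription factor of the lineage, was above the reference RNA on all 8 arrays, from 0.05 to 1.20. Alpl, the alkaline phosphatase of mineralising cells, read -0.85 and -0.61 with vector cells in DMSO, -2.38 and -2.04 with Jagged1 cells in DMSO, -0.70 and 0.05 with vector cells in MRK-003, and -0.68 and 0.12 with Jagged1 cells in MRK-003. It was lowest in the arrays where Col4a1, Col4a2 and Col5a3 were highest. Of 10 epithelial markers 8 were tested, and Cdh1 was not, being well above background on 2 arrays. All 8 differences were positive with Jagged1 in DMSO (median 0.24), 7 of 8 were negative with MRK-003 in Jagged1 co-cultures (median -0.15), and none passed. The summed Cy3 level of the 10 epithelial markers, each array's processed Cy3 signal divided by its 75th percentile with no use of the reference channel, ran from 4.22 to 4.52 with vector cells in DMSO, 5.04 to 5.66 with Jagged1 cells in DMSO, 4.52 to 5.43 with vector cells in MRK-003 and 4.69 to 5.0 with Jagged1 cells in MRK-003. Krt8, Krt18, Krt19 and Epcam lay below the reference RNA on every array (-6.16 to -4.23), while Krt5 lay near it (-0.06 to 0.20). Of 5 macrophage markers, all tested, 5 were positive with Jagged1 in DMSO (median 0.26) and 5 negative with MRK-003 (median -0.06). All 5 lay below the reference RNA on every array, from -7.12 (Ptprc) to -1.66 (Csf1r). Of 6 endothelial markers 5 were tested, with medians of 0.04 and 0.09, and of 7 chondrocyte markers 5, with medians of -0.53 and 0.18. No marker passed by limma. With the slide as a block Alpl passed, lower with Jagged1 in DMSO (limma adjusted p = 0.033) and higher with MRK-003 in Jagged1 co-cultures (0.0076). The part of these markers in the collagen differences was not tested.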

How the data were processed

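Two-colour Agilent arrays of 8 co-cultures were used, 4 groups with 2 arrays each. Per the file headers, the authors ran Agilent Feature Extraction 9.5.3.1, which gave for each spot mean and background intensities, processed intensities (background-subtracted and dye-normalized) and flags for saturation, outliers and signal above background. The deposited scanner files also hold a log10 ratio of Cy5 over Cy3, and the authors' deposited value table holds log2 ratios, which equalled log2 of processed Cy3 over Cy5 plus 1 constant an array (within 0.02 for 100% of spots, column medians 0.11 to 0.21). Scale and direction are therefore known, and the purpose of the constant is not given in the sources used here.

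Here log2 of processed Cy3 over Cy5 was averaged over the spots of a probe, without control spots and 1192 outlier-marked ones. Probes well above background in Cy3 on all arrays of a group passed the filter on dim probes (33287 of 41174). The brightest of all probes stood for each gene, and the gene was tested if that probe passed. Group means were fitted with limma 3.58.1 (R 4.3.3), with Benjamini-Hochberg adjustment over 23561 genes and a threshold of 0.05, for 5 comparisons including the interaction. Normexp correction on local background was not the main setting. A few spots with extreme local background raised the 10th percentile of corrected Cy3 to 149, 378 and 438 on 3 arrays against 65.3 to 70.6 on the other 5. Replicate number and slide coincide, per the file headers, and samples of the same number deviated together (correlations 0.28 to 0.72 over 6 pairs of groups), so the fit with the slide as a block is given where it changes a call. In data simulated for MRK-003 against DMSO with Jagged1 cells over 23561 genes, 14 of 50 genes changed by 1 on the log2 scale were recovered, 41 of 50 changed by 2, 48 of 50 changed by 3 and 50 of 50 changed by 4, with 6 false calls. The simulated noise was independent between arrays, with no slide effect, unlike the measured data, so these counts hold for that simpler setting.

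The median Cy3 spot signal was 165 to 204 on slide 1 and 76.5 to 117 on slide 2, and 71.4% to 89.4% of spots were well above background in Cy3. Symbols are those of RefSeq (GRCm38.p6) for 22951 probes matched by accession, and of the array's design otherwise. Accessions of 32 of the 40 collagen probes matched. Probes that the design lists under older names of Col26a1 and Col6a6 are not among the 40. Array values were described for the members that passed, the 3 largest differences of each comparison and Col1a1, Col1a2, Col3a1, Col4a1, Col4a2, Col5a1 and Col6a1, and, chosen after their values were seen, for Col4a5, Alpl and further probes of Col1a1 and Col3a1. The members, the gene lists and the tests were chosen with earlier results of these data known. Alternatives covered background, channel, centring, filters, saturation, probes, the block and each array left out.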

Additional observations from a re-analysis of the deposited data

How the results depend on the processing

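The precision is limited by 2 arrays a group, by saturation of the brightest collagen probes and by a mean Cy3 signal under 150 for 13 of 40 genes. For MRK-003 against DMSO with Jagged1 cells, the count of 3 collagen genes was 3 with the authors' deposited value table, with arrays centred on their medians, without saturated spots and with outlier spots kept, and 2 with Cy3 alone (Col4a1 and Col5a3). It was 5 with limited local background and 5 when probes had to be well above background in both channels, 1 with the mean of a gene's probes (Col4a1), 0 with local background and loess, and 0 with no filter on dim probes. Leaving out any 1 of the 8 arrays gave 0. With the replicate block, which pairs the arrays of a slide, the count was 7. With limited local background and the block it was 15, where 2238 of all 23561 genes passed (1347 higher and 891 lower). For Jagged1 in DMSO the count of 0 became 2 with the replicate block. It became 7 with limited local background and the block, where 902 of all 23561 genes passed. For the interaction the count of 0 became 1, Col4a1, with limited local background and the block, where 91 of all 23561 genes passed. The other 2 comparisons gave 0 in every setting. The cause of these shifts was not tested. No named difference that passed changed sign.

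Over all genes, the calls for MRK-003 with Jagged1 cells were 261 and became 983 with the block, 71 with local background, 498 with limited background, 66 with Cy3 alone and 64 with no dim filter. With probes well above background in both channels they were 356 of 20044. For Jagged1 in DMSO, 17 became 256 with the block. The split moved from 102 higher and 159 lower to 522 and 461 with the block, 240 and 258 with limited background and 18 and 48 with Cy3 alone. Cy3 alone moved the median of all genes to 0.12 for Jagged1 in DMSO, 0.16 for MRK-003 with vector cells and 0.13 for the interaction, and the collagen medians to 0.35, 0.12 and 0.29, so relative to all genes the second was slightly negative.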
